A study of Rattus norvegicus with 30 samples.

Results

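The places in the genome where total histone H3 and pan histone H4 were both listed as enriched, and those where only 1 of them was, were compared in the control embryo cortex. The members were the 2 control peak lists, which hold 169297 total H3 intervals and 196878 pan H4 intervals. These are 366175 of the 1417597 intervals in the 10 lists of the series, and they rest on 6 of its 30 chromatin immunoprecipitation sequencing (ChIP-seq) libraries. The tissue was the brain cortex of Wistar rat embryos at E14.5, and the dams of the control group were fed normal chow. In the other group, used here only as a second reading, the dams were fed a high-fat diet (HFD) before and during gestation. Per the study's methods, each biological replicate was a pool of the frontal cortices of a whole litter. Chromatin was crosslinked with formaldehyde and sonicated, and each antibody and diet had 3 libraries but 1 deposited list called on them together. No value can therefore be set against a spread between replicates, no test between lists was possible, and a share carries a 95% Wilson interval that reflects counting error and nothing else. In 1 of the 3 control total H3 libraries, replicate 3, the title and peak list name the control diet, but the treatment label and the description name HFD. It was taken as control by its title and cannot be separated from the list. The lists carry rn6 positions without gene names, and no rn6 annotation was used here, so that the tissue label was not checked against marker genes.

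H3 and H4 form the tetramer at the core of the nucleosome, around which DNA is wrapped, so both proteins are present in nearly every nucleosome. Antibodies to the unmodified parts of these histones are used as a reference for nucleosome occupancy when modified forms are measured. Among the modified forms, H3K4me3 is known for marking the start sites of active and poised genes, H4K16Ac goes with open chromatin, and H3K27me3 is the mark of Polycomb repression.

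Total H3 and pan H4 were listed at the same places in most cases. With an overlap of at least 1 bp, 126381 of the 169297 total H3 intervals met a pan H4 interval, which is 74.7% (95% interval 74.4% to 74.9%). Seen from the longer list, 125451 of the 196878 pan H4 intervals met a total H3 interval, which is 63.7% (63.5% to 63.9%). The lists shared 69.0 Mb, which made up 71.9% of the bases under total H3 and 59.0% of those under pan H4. For scale, pan H4 intervals covered 4.18% and total H3 intervals 3.43% of the 2781.4 Mb spanned by the 22 chromosomes.

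Total H3 met the partner antibody slightly more often than the same antibody on the other diet, and pan H4 met it less often. HFD total H3 intervals overlapped 71.8% of the control total H3 intervals, below the 74.7% reached by control pan H4. HFD pan H4 overlapped 78.4% of the control total H3 intervals, the highest share of the 3. HFD pan H4 overlapped 70.6% of the control pan H4 intervals, against 63.7% for control total H3 and 63.8% for HFD total H3. Within the HFD lists, 80.0% of total H3 intervals met pan H4 and 71.0% of pan H4 intervals met total H3.

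The list lengths and depths behind these shares were unequal. Pan H4 had 1.16 intervals for each total H3 interval, and the background pileup recovered from its values was 1.64 fragments per base against 1.01 for total H3, a ratio of 1.62. The authors' threshold was lenient, and 42.5% of the total H3 intervals and 34.4% of the pan H4 intervals had a −log10 q of at least 5, where q is the p-value adjusted by the peak caller. A longer list meets more of a shorter one, so the 2 percentages are not independent readings of how well the antibodies agree. In HFD, 42.7% of the total H3 and 57.9% of the pan H4 intervals reached a −log10 q of at least 5. Comparisons with HFD thus rest on a pan H4 list stronger than that of control. For total H3 they also rest on a control list that includes 1 library with conflicting diet labels.

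Coincidence rose with the strength of the interval. Of the total H3 intervals with a −log10 q under 1, 42.6% met pan H4, and the share was 67.5% from 2 to 5, 86.8% from 5 to 10 and 97.6% from 10 to 20. Above 20 it was 99.8% in both remaining classes. Pan H4 intervals followed the same order from 30.1% in the weakest class through 59.9% and 83.3% to 99.7% in the 2 strongest. Of all intervals with a −log10 q of at least 5, 92.1% of total H3 and 90.3% of pan H4 met the other list at any strength. Intervals with 2 or more summits coincided more often than those with 1, at 97.5% against 71.6% for total H3 and 95.7% against 59.6% for pan H4. This split was not read at equal strength or width, so it does not single out the number of summits. Unplaced and other extra sequences held 1082 total H3 and 1272 pan H4 intervals, with shares of 75.7% and 63.9%, close to those of the chromosomes.

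**Figure D1:**
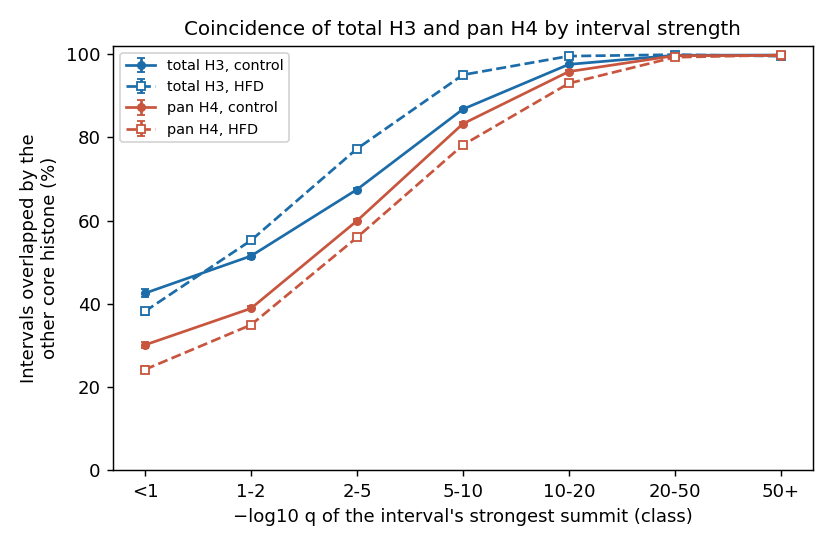
Share of intervals (%) overlapped by the other core histone of the same diet, by the −log10 q class of the interval, for total H3 (blue) and pan H4 (red) in control (filled, solid) and HFD (open, dashed); bars are 95% Wilson intervals. In control the share rises from 42.6% to 99.8% for total H3 and from 30.1% to 99.7% for pan H4.

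Where the lists met, an interval of one nearly always met a single interval of the other. There were 127435 overlapping pairs, of which 121466 (95.3%) were one-to-one, meaning that neither member touched a further interval of the other list. Only 1046 total H3 intervals spanned 2 or more pan H4 intervals, and 1959 pan H4 intervals spanned 2 or more total H3 intervals. In 88.9% of the one-to-one pairs each interval covered at least 50% of the other. Total H3 lay wholly inside pan H4 in 30.3% of these pairs and pan H4 inside total H3 in 15.8%. Exact copies were rare, as 16 pairs had identical starts and ends and 817 had the same summit base.

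The strongest summits of overlapping intervals lay close together. Over all pairs the median distance was 50 bp, with quartiles of 20 and 130 bp, and 90% of the distances were at most 357 bp. In one-to-one pairs the median was 48 bp, 13.7% of summits were within 10 bp, 51.5% within 50 bp and 79.6% within 150 bp. Neighbouring summits inside 1 interval of the same list were a median of 461 bp apart for total H3 and 474 bp for pan H4. Their 5th percentiles were 232 and 235 bp. These spacings are no yardstick for the distances between lists, which were measured only where intervals overlap.

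Distance depended on how many summits an interval had and on how strong the weaker member was. Pairs with 1 summit in each member had a median of 43 bp, and pairs with several summits in one or both had 96 bp. Where there are several, the strongest summit need not be the same one in both lists. In 11199 pairs both members had several summits, and 72.5% of these had the same number. By the lower −log10 q of the pair, the median was 81 bp under 2 and 46 bp from 2 to 5. It was 38 bp from 5 to 10, 41 bp in both classes from 10 to 50, and 12 bp at 50 and above. The 1322 pairs of the last class stood apart, with 46.7% of summits within 10 bp and 91.8% within 50 bp. Their local background pileups were also the highest, with medians of 4.81 for total H3 and 6.37 for pan H4 against 1.41 and 2.39 in pairs from 2 to 5. H3K4me3 intervals overlapped 99.2% of these strongest pairs and 48.3% of the pairs from 2 to 5. Of the 1339 overlapping pairs with both −log10 q values at least 50, 46 lay on sequences other than the chromosomes. Such sequences held 1082 of all 169297 total H3 intervals. The part of background and of such sequences in the short distances was not tested.

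**Figure D2:**
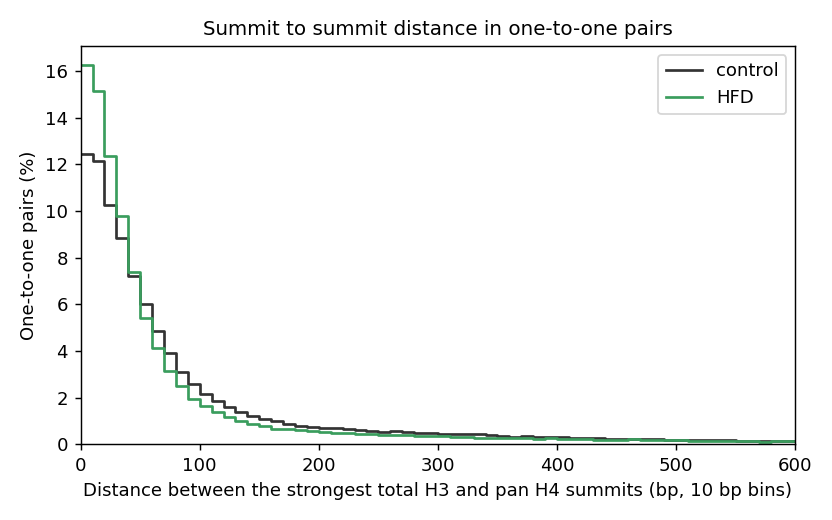
Distribution of the distance (bp, bins of 10 bp) between the strongest total H3 and pan H4 summits in one-to-one pairs, as a percentage of pairs, for control (black) and HFD (green). The control curve falls from 12.4% of pairs in the first bin, with a median of 48 bp against 36 bp in HFD.

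Taking every summit rather than the strongest of each pair lengthened the distances, since summits without a partner then count. The median from a total H3 summit to the nearest pan H4 summit was 77 bp, with 39.5% within 50 bp. From a pan H4 summit to the nearest total H3 summit it was 115 bp, with 34.1% within 50 bp. At 1000 bp 80.5% of total H3 summits and 70.5% of pan H4 summits had a partner.

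Widths were similar in most pairs, with pan H4 more often the wider. In one-to-one pairs the median width was 518 bp for total H3 and 576 bp for pan H4, and the median ratio of total H3 to pan H4 was 0.943 with quartiles of 0.786 and 1.09. Pan H4 was wider in 61.4% of pairs and total H3 in 38.2%. The widths were within 1.5-fold of each other in 80.3% of pairs and more than 2-fold apart in 6.97%, which consisted of 5.08% with the wider pan H4 and 1.88% with the wider total H3. Starts and ends each differed by a median of 62 bp, against 48 bp for the strongest summits of the same pairs. The extra width of pan H4 was spread over both sides, as total H3 started a median of 14 bp later and ended 15 bp earlier.

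The widths agreed most closely in strong pairs. Spearman's rho between the widths was 0.680 over the 121466 pairs, which share libraries and a genome and are not independent, so no p is given. By the lower −log10 q of the pair rho was 0.294 under 2, 0.535 from 2 to 5, 0.732 from 5 to 10, 0.863 from 10 to 20, 0.899 from 20 to 50 and 0.887 at 50 and above. The ratio itself stayed between 0.937 and 0.965 in the 6 classes. Intervals of at least 2000 bp numbered 687 for total H3 and 860 for pan H4 in these pairs, and 564 pairs reached that width in both.

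**Figure D3:**
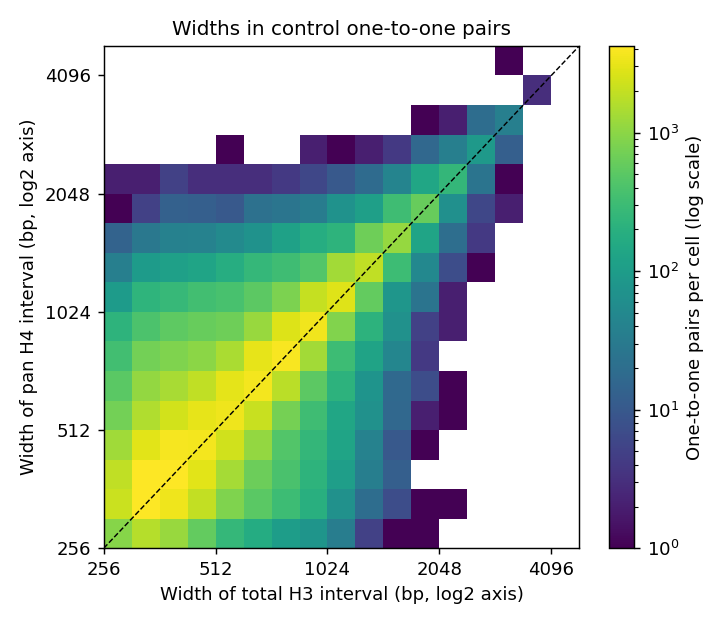
Number of control one-to-one pairs (colour, log scale) by width of the total H3 interval (horizontal, bp, log2 axis) and of the pan H4 interval (vertical, bp, log2 axis); the dashed line marks equal widths. Most pairs lie near or above the line, with pan H4 wider in 61.4%.

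The fold enrichment at the summit, a ratio to local background with a pseudocount of 1, was 4.72 for total H3 and 4.15 for pan H4 at the median of one-to-one pairs. The median log2 ratio of total H3 to pan H4 was 0.17, and total H3 was higher in 66.7% of pairs. The difference in log2 fold was smallest in size over the strongest H3K4me3 intervals. It was 0.20 in pairs without H3K4me3, 0.22 with an H3K4me3 −log10 q under 2, 0.21 from 2 to 5 and 0.18 from 5 to 10. It was 0.13 with an H3K4me3 −log10 q from 10 to 20, 0.07 from 20 to 50 and −0.03 at 50 and above. Without the pseudocount, which weighs more on the shallower list, the overall value was 0.34 and that of the strongest class 0.08, so that the sign in the strongest class depends on it. In HFD the log2 ratio over all pairs was −0.14 with the pseudocount and 0.02 without it, so that its sign depends on the pseudocount too. The ratio of background pileups was 1.60 in HFD, near that of control, but the pan H4 list was stronger. Over all intervals the median fold of pan H4 was 4.29 in HFD and 3.53 in control, and that of total H3 was 4.13 and 4.24. The part of this in the change of the ratio was not tested. With the pseudocount the HFD value went from −0.09 in pairs without H3K4me3 to −0.28 in the strongest class, further from 0 rather than nearer. The direction was nevertheless that of control, where the value fell from 0.20 to −0.03. Without the pseudocount it fell from 0.41 to 0.08 in control and from 0.09 to −0.13 in HFD. On both scales the HFD value lay below that of control, and 1 list for each gives no measure of how far such a median varies between libraries.

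Intervals listed for 1 histone alone were narrower and weaker than the coinciding ones. There were 42916 total H3 only and 71427 pan H4 only intervals, with median widths of 349 and 377 bp, against 519 and 581 bp where the lists coincided. Their median fold was 3.41 and 3.03, against 4.66 and 4.11. A −log10 q of at least 5 was reached by 13.3% of total H3 only and 9.22% of pan H4 only intervals, against 52.5% and 48.7% of the coinciding ones. At 20 and above, 32 intervals were total H3 only and 57 pan H4 only. A near miss was not the rule, since the median gap to the nearest interval of the other histone was 2069 bp for total H3 only and 3572 bp for pan H4 only. The gap was at most 1000 bp in 27.1% and 19.2%.

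Single-listed intervals lay further from H3K4me3 peaks. Of all control intervals, 65.7% of total H3 and 60.9% of pan H4 were within 2500 bp of a control H3K4me3 interval. The share was 72.9% (72.7% to 73.2%) for coinciding total H3 and 44.4% (43.9% to 44.9%) for total H3 only. For pan H4 it was 72.9% (72.6% to 73.1%) where the lists coincided and 39.9% (39.5% to 40.2%) for pan H4 only. Direct overlap with H3K4me3 separated the kinds more sharply, at 59.5% and 59.7% of the coinciding intervals against 16.4% of total H3 only and 16.3% of pan H4 only. Over all strengths pan H4 only intervals lay the furthest out in control, with a median gap to H3K4me3 of 4144 bp, against 3110 bp for total H3 only and 0 for both kinds of coinciding interval. In the HFD lists it was total H3 only that had the lower share within 2500 bp, at 37.2% against 40.9% for pan H4 only. The order was also turned in control from a −log10 q of 10 to 20, at 51.3% against 59.5%, and with −log10 q of at least 5 in every list, H3K4me3 included, at 8.66% against 11.6%. Within 10000 bp of H3K4me3 lay 79.9% of total H3 only and 73.7% of pan H4 only intervals. Such shares depend on the threshold of the lists, since those within 2500 bp went from 44.4% to 8.66% and from 39.9% to 11.6% at the stricter one.

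Since strong intervals both coincide and lie at H3K4me3, the shares were also read at equal strength. Among total H3 intervals with a −log10 q from 2 to 5, 61.5% of the coinciding and 43.8% of the single-listed were within 2500 bp of H3K4me3. From 10 to 20 these shares were 90.7% and 51.3%. Pan H4 gave 62.2% and 40.6% from 2 to 5, and 91.5% and 59.5% from 10 to 20. Coinciding intervals were thus the nearer ones at equal strength too. Width was not held equal, and the part of the greater width of coinciding intervals in this was not tested. Strength and position could not be separated at the top, because 29 total H3 and 46 pan H4 intervals were single-listed from 20 to 50.

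Coincidence fell off at the edge of H3K4me3 rather than gradually. Of the total H3 intervals that overlapped or touched H3K4me3, 91.4% met pan H4, and of those with a gap of up to 500 bp, 63.6% did. Beyond that the share stayed between 56.8% and 61.0% out to more than 50000 bp. Pan H4 behaved otherwise at long range. Its share was 86.5% at H3K4me3 and between 49.0% and 50.6% for gaps of up to 5000 bp, after which it declined to 45.7%, 40.1% and, beyond 50000 bp, 35.4%. With −log10 q held from 2 to 5 the pattern stood, at 83.9% and then 57.9% beyond 50000 bp for total H3, and 77.8% and then 39.2% for pan H4. Interval width was not held equal here either. In HFD both histones had their lowest share beyond 50000 bp, at 59.4% for total H3 and 47.9% for pan H4, so the course of total H3 beyond the edge was level in control but not in HFD.

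**Figure D4:**
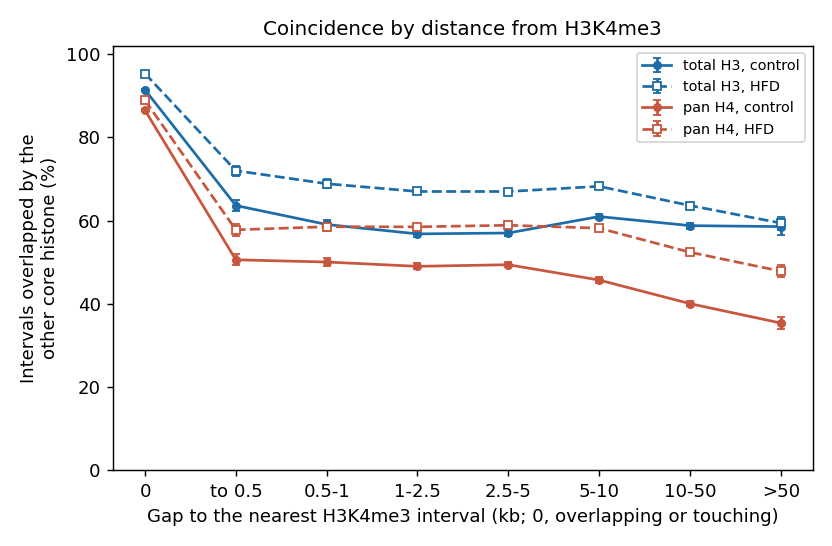
Share of intervals (%) overlapped by the other core histone of the same diet, by the gap (kb) to the nearest H3K4me3 interval of that diet, for total H3 (blue) and pan H4 (red) in control (filled, solid) and HFD (open, dashed); bars are 95% Wilson intervals. Control total H3 drops from 91.4% to 63.6% at the edge of H3K4me3 and then stays level, while control pan H4 drops from 86.5% to 50.6% and further to 35.4% beyond 50 kb.

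The modified histones separated the kinds in the same way. H4K16Ac intervals, which cover 7.01% of the span, overlapped 86.8% of all control total H3 and 77.9% of all control pan H4 intervals. They overlapped 93.5% of the coinciding total H3 intervals and 66.9% of total H3 only, and for pan H4 93.6% and 50.5%. H3K27me3 overlapped 31.1% of all total H3 and 27.5% of all pan H4 intervals. It was found at 39.1% of the coinciding intervals of either histone, but at 7.45% of total H3 only and 7.32% of pan H4 only. No interval of the 3 marks overlapped 4.83% of coinciding total H3 against 29.4% of total H3 only, and 4.82% of coinciding pan H4 against 43.3% of pan H4 only. In control, single-listed pan H4 thus held the largest share of intervals without any of these marks. In HFD the order was the opposite, with no mark at 44.8% of total H3 only and 33.5% of pan H4 only, and H4K16Ac at 51.2% and 62.2%. Unlike those for H3K4me3, these shares were not read at equal strength. The order of strength also differed by diet. A −log10 q of at least 5 was reached by 13.3% of total H3 only and 9.22% of pan H4 only in control, and by 6.12% and 24.0% in HFD. The part of strength in the mark shares was not tested.

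Seen from the H3K4me3 list, both core histones were the usual finding. Of 113056 control H3K4me3 intervals, 74825 were overlapped by both, or 66.2% (65.9% to 66.5%). Total H3 alone was listed at 7228 (6.39%), pan H4 alone at 12055 (10.7%) and neither at 18948 (16.8%). With the list divided by −log10 q into 10 equal parts (deciles), the share with both grew from each to the next, from 27.2% in the weakest to 63.2% in the fifth, 88.8% in the eighth and 99.9% in the strongest. In the weakest decile 47.6% had neither histone. Where only 1 was listed it was more often pan H4, at 16.6% against 8.68% in the weakest decile and 5.58% against 3.23% in the eighth. This order was not particular to H3K4me3, since the whole lists held 71427 pan H4 only and 42916 total H3 only intervals. Among H3K4me3 intervals with a −log10 q of at least 5, 96.8% had both and 0.671% had neither.

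**Figure D5:**
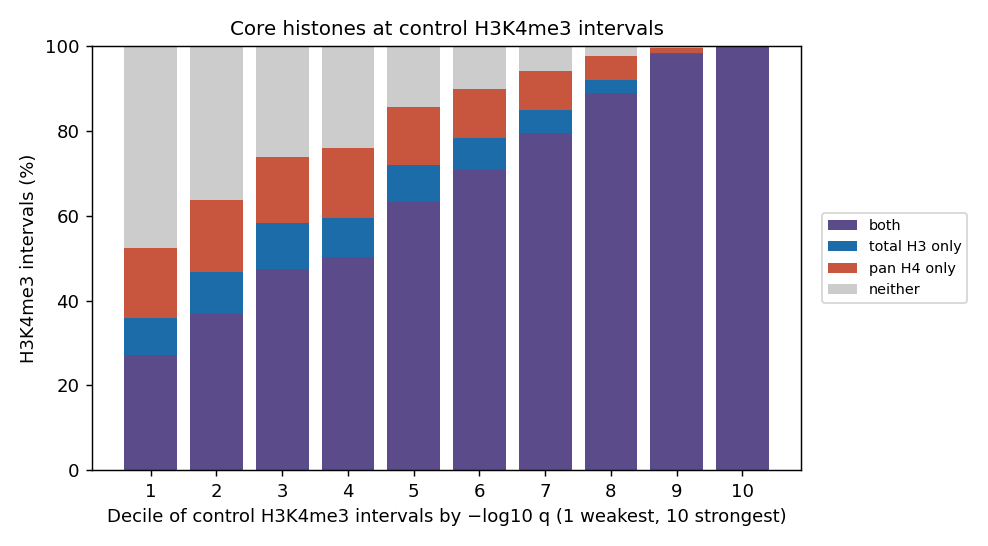
Control H3K4me3 intervals in deciles of −log10 q (1 weakest, 10 strongest), each bar divided by the percentage overlapped by both core histones, total H3 only, pan H4 only or neither. The part with both grows from 27.2% to 99.9%. The pan H4 only part is the larger of the single-listed ones in each decile, as pan H4 only intervals are the more numerous in the whole lists.

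Where all 3 lists had a summit, the core histone summits lay, over all strengths together, nearly as close to the H3K4me3 summit as to each other. In 71517 such places the median distance to the H3K4me3 summit was 56 bp from total H3 and 61 bp from pan H4, and 48 bp separated the core histones. With an H3K4me3 −log10 q under 2 the medians were 91 bp from total H3 and 95 bp from pan H4, against 57 bp between the core histones. At H3K4me3 intervals with a −log10 q of 50 and above they were 47 bp from total H3 and 66 bp from pan H4. There 62 bp separated the core histones, and total H3 was the nearer to H3K4me3 in 57.9% of places. In HFD the same class gave 64 and 58 bp, and pan H4 was the nearer in 54.9%, so the order of the antibodies was not shared by the diets.

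Single-listed intervals were a mixed group when looked up in the HFD lists. Of the total H3 only intervals, 30.0% were met by both HFD core histones, 10.8% by HFD total H3 alone, 18.9% by HFD pan H4 alone and 40.4% by neither. Of the pan H4 only intervals, 22.3% were met by both, 16.6% by HFD pan H4 alone, 8.63% by HFD total H3 alone and 52.5% by neither. Coinciding total H3 intervals were met by both in 78.2% and by neither in 7.36%. The missing partner was therefore listed in HFD at 48.8% of total H3 only and 30.9% of pan H4 only intervals. Among the strongest, with a −log10 q of at least 10, both HFD histones met 75.1% of 502 total H3 only intervals and 68.3% of 706 pan H4 only intervals. The partner missing in control was listed in HFD at 89.8% and 74.4% of these strong intervals, and the parts of diet and depth in this cannot be told apart with 1 list each.

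Chromosomes differed little in the share of total H3 that coincided and more in the balance of the lists. The total H3 share ran from 71.9% on chromosome 12 to 80.9% on chromosome X. The pan H4 share ran from 59.4% on chromosome 2 to 68.4% on chromosomes 10 and Y, the latter with 76 intervals. Pan H4 intervals per total H3 interval numbered 1.05 on chromosome 12 and 1.07 on chromosome 10, but 1.29 on chromosome 2 and 1.30 on chromosome X. Across chromosomes 1 to 20 and X, 21 in all, this ratio was lower where H3K4me3 intervals were denser, with a Spearman's rho of −0.935 and a Pearson's r of −0.912. The chromosomes share the same libraries and differ in base composition, which was not examined, so this is given as a description. The control and HFD ratios of the 21 chromosomes had a rho of 0.821, although the HFD ratio spanned only 1.08 to 1.17.

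The strongest coinciding pairs lay at places that were not particular to the 2 core histones. At chr1:30985720-30986076 for total H3 and chr1:30985726-30986075 for pan H4 (rn6), the fold was 33.5 and 32.4, and the summits were 3 bp apart. At chr9:12093683-12094400 and chr9:12093675-12094473 it was 28.6 and 27.8, with summits 1 bp apart. At chr4:146547137-146548580 and chr4:146546987-146548564 the fold was 11.6 and 10.6, each interval had 2 summits, and the strongest were 28 bp apart. All 3 places also overlapped H3K4me3, H4K16Ac and H3K27me3 in control and both core histones in HFD. These were thus places listed for every antibody of the series, and each core histone interval had a −log10 q of at least 1917. Whether the signal there depends on the antibody was not tested. The widest one-to-one pair, chr1:187897899-187901763 for total H3 (3865 bp) and chr1:187897865-187901697 for pan H4 (3833 bp), had 8 summits in each list and a lower fold of 3.02 and 3.48.

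The strongest single-listed intervals did not share 1 pattern. The first total H3 only interval, chr4:146538768-146539049, lay in the same neighbourhood as one of the strongest pairs. It had a pileup of 679 over a local background of 167, and thus a fold of only 4.05. The next, chr12:13945270-13945557 and chr13:90003199-90003541, had folds of 18.7 and 17.8, overlapped H3K4me3, and were listed for both histones in HFD. The pan H4 only intervals chr4:119072581-119073015, chr8:127205291-127205615 and chr8:91571555-91572000 had folds of 14.3, 13.8 and 17.5. The first overlapped H3K4me3, and the others were 6383 and 31183 bp away from it. In HFD the first 2 of these were listed for both histones and the last for pan H4 alone, so 4 of the 6 named single-listed places had both histones on the other diet.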

How the data were processed

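ChIP-seq peak lists of 5 antibodies and 2 diets, 10 in all and each called on 3 libraries together, were used. Per the labels and the study's methods, the authors used bowtie2 for alignment to rn6 and MACS2 for peak calling. Versions, options, duplicate handling and any input library are not given in the sources used here. The deposited lists give a score (10 times −log10 q), a fold enrichment (a ratio to local background with a pseudocount of 1) and, as −log10, a p-value and a q-value, as the authors' MACS2 wrote them. In narrow lists these belong to a summit, and rows that share an interval were counted once with their strongest summit. Libraries were grouped by title. Overlaps of at least 1 bp, distances, widths and Wilson intervals were computed with scipy 1.17.1, pandas 2.3.3 and numpy 2.4.6 under Python 3.11.15, and drawn with matplotlib 3.10.9, after the interval functions were tested on simulated data. Pileup and background were solved from fold and p, which gave a whole pileup to within 0.1% for 99.96% of total H3 and 99.95% of pan H4 intervals. The rule for named regions was the 3 strongest coinciding pairs, the 3 strongest intervals of each single-listed kind and the widest one-to-one pair on the 22 chromosomes. The members, lists and alternatives were chosen with earlier results of these data known. The alternatives were −log10 q of at least 5, lists of equal length, chromosomes only, every listed summit, HFD lists, overlap of 50% and other distances.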

Additional observations from a re-analysis of the deposited data

How the results depend on the processing

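With 1 pooled list for each antibody and diet, a library could not be left out. No paired analysis was possible because no result comes from a test and the libraries of a group are not listed apart. The 7 main values had 49 alternatives, of which 10 stayed within their counting interval. Coinciding total H3 had a higher share near H3K4me3 than total H3 only under each alternative that gave both values. With −log10 q of at least 5 in every list, H3K4me3 included, the share of total H3 with pan H4 was 67.3%, that of pan H4 with total H3 71.2% and the summit distance 39 bp, and the shares within 2500 bp of H3K4me3 were 8.66% for total H3 only, 11.6% for pan H4 only and 58.5% for coinciding total H3, so that total H3 only had the lower share of the single-listed kinds. With lists of equal length the values were, in this order, 69.9%, 69.2%, 48 bp, 46.2%, 41.1% and 74.1%, with a width ratio of 0.940, so that the shares of the 2 histones were then nearly equal, and at −log10 q of at least 5 their order was the opposite. The HFD lists gave 80.0%, 71.0%, 37 bp, 37.2%, 40.9% and 69.8%, with a width ratio of 0.918. Here too total H3 only had the lower share near H3K4me3. Counting every listed summit gave 77.6% and 67.8%, and 76.4% of coinciding total H3 near H3K4me3. Asking for 50% of the interval gave 71.3% and 58.4%, and 50% of both intervals 64.2% and 55.2%, with 46 bp and a width ratio of 0.953. One-to-one pairs gave 48 bp, and intervals of 1 summit a width ratio of 0.936. Overlap in place of 2500 bp gave 16.4%, 16.3% and 59.5%, and 10000 bp gave 79.9%, 73.7% and 90.3%. Without an interval of the other histone within 1000 bp, the shares were 37.4% and 34.0%. The log2 fold ratio changed sign to −0.139 in HFD with the pseudocount but not without it (0.02), and at H3K4me3 of −log10 q 50 and above to 0.0782 without the pseudocount, an alternative chosen after seeing the data.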

Other observations

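Chromosome X held 21.6 control total H3 and 28.0 pan H4 intervals per Mb, against 40.2 to 135 and 51.8 to 143 on the autosomes. Its ratio of pan H4 to total H3 intervals was 1.30 in control and 1.17 in HFD, the highest of chromosomes 1 to 20 and X in both diets. The number of total H3 intervals on X was 3449 in control and 4881 in HFD, while the whole list had 169297 and 177713. For pan H4 the number on X was 4472 and 5693, with 196878 and 197410 in the whole list. The sex of the embryos, which were pooled by litter, is not given in the sources used here, and its part in these values was not tested.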
